A study of Mus musculus with 8 samples.

Results

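The enzymes that break down amino acids and dispose of their nitrogen as urea were examined in the livers of mice lacking SIRT7, a histone deacetylase, and of wild-type (WT) mice. Of 47 listed enzymes, 42 had a probe set annotated to their gene symbol alone, 53 such probe sets in all, among 12393 genes measured in that way. Each gene is described by its brightest probe set, and 9 genes had several. Ass1, Gls2, Sds, Sdsl and Amt had no such probe set and are not analysed here. Total RNA from 4 SIRT7 KO livers and 4 WT livers was hybridised to Affymetrix mouse expression arrays, 1 array a liver. The animals are SIRT7-/- as a whole, not in the liver alone, and according to the study they develop fatty liver disease with inflammation on a chow diet. The labels give tissue and genotype only, so age, sex, litter and hybridisation batch are not given. A p-value here measures only how these 8 samples spread, which may in part be technical. Expression is given on the log2 scale, on which a difference of 1 is a doubling.

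Hepatocytes are the main site at which the carbon skeletons of amino acids are oxidised or turned into glucose. Their nitrogen is gathered by transaminases into glutamate and aspartate, released as ammonia, and fixed by the urea cycle, most strongly in periportal hepatocytes. Most of these enzymes are abundant in liver and are regulated by glucagon, glucocorticoids and protein intake.

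As a check of the labels, Sirt7 itself stood at 4.73, 4.53, 4.40 and 4.90 on the SIRT7 KO arrays, against 8.98, 8.97, 8.88 and 8.57 on the WT arrays, a difference of -4.21 ± 0.13 (SE, adjusted p = 9.2e-07 by limma). All 42 listed enzymes had means over the 8 arrays between 6.99 and 14.46, above 6.35, the middle value of the means of all tested probe sets. Arrays of 1 genotype correlated at 0.989 or more.

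Of the histidine enzymes 2 of 4 fell in SIRT7 KO livers, of the branched-chain and propionate enzymes 3 of 10, of the urea cycle 1 of 4, and the single listed proline enzyme fell as well. Of the 42 genes in all, 7 fell (Hal, Mccc1, Prodh, Dbt, Asl, Ivd and Uroc1) and 0 rose by limma, taking adjusted p-values below 0.15 as the study did, whereas among all 12393 genes 2.48% fell and 2.17% rose at that threshold. Uroc1 fell by 17.2%, the smallest of the 7 falls, and Hal fell by 41.5%, the largest. At an unadjusted p under 0.05, 12 of the 42 were lower and 0 higher, against 8.72% and 6.91% of all genes. In 11 of the 42 all 4 SIRT7 KO values lay below all 4 WT values, and in 0 all lay above, against 5.7% and 4.1% of all genes. All 42 are brighter than 6.35, and no share over such bright genes was taken for either of these counts. A difference below 0 was seen for 32 of the 42, against 50.7% of all genes and 57.8% of the 6923 genes brighter than 6.35, a set that also holds genes dimmer than any listed one. The median difference over the 42 was -0.14, against -0.0031 over all genes, though with each array centred on its spike-in controls 2 fell, 3 rose and the median was 0.014, against 0.15 over all genes.

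These counts depended on single arrays. Without SIRT7 KO 2 or SIRT7 KO 4 only 1 gene fell in each fit, without WT 1 it was 0, without WT 3 it was 3, without SIRT7 KO 1 or WT 2 it was 4, and without SIRT7 KO 3 or WT 4 it was 7 or 6. The genes were not all the same ones. Without SIRT7 KO 3, Agxt and Ftcd fell and Asl and Uroc1 did not, and without WT 4, Amdhd1 fell and Asl and Prodh did not. When only the probe sets brighter than 6.35 were tested, 11 of the 42 fell, against 7.34% of the 6923 genes. In bulk liver RNA, fewer cells of a type and less RNA per cell cannot be told apart.

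**Figure D1:**
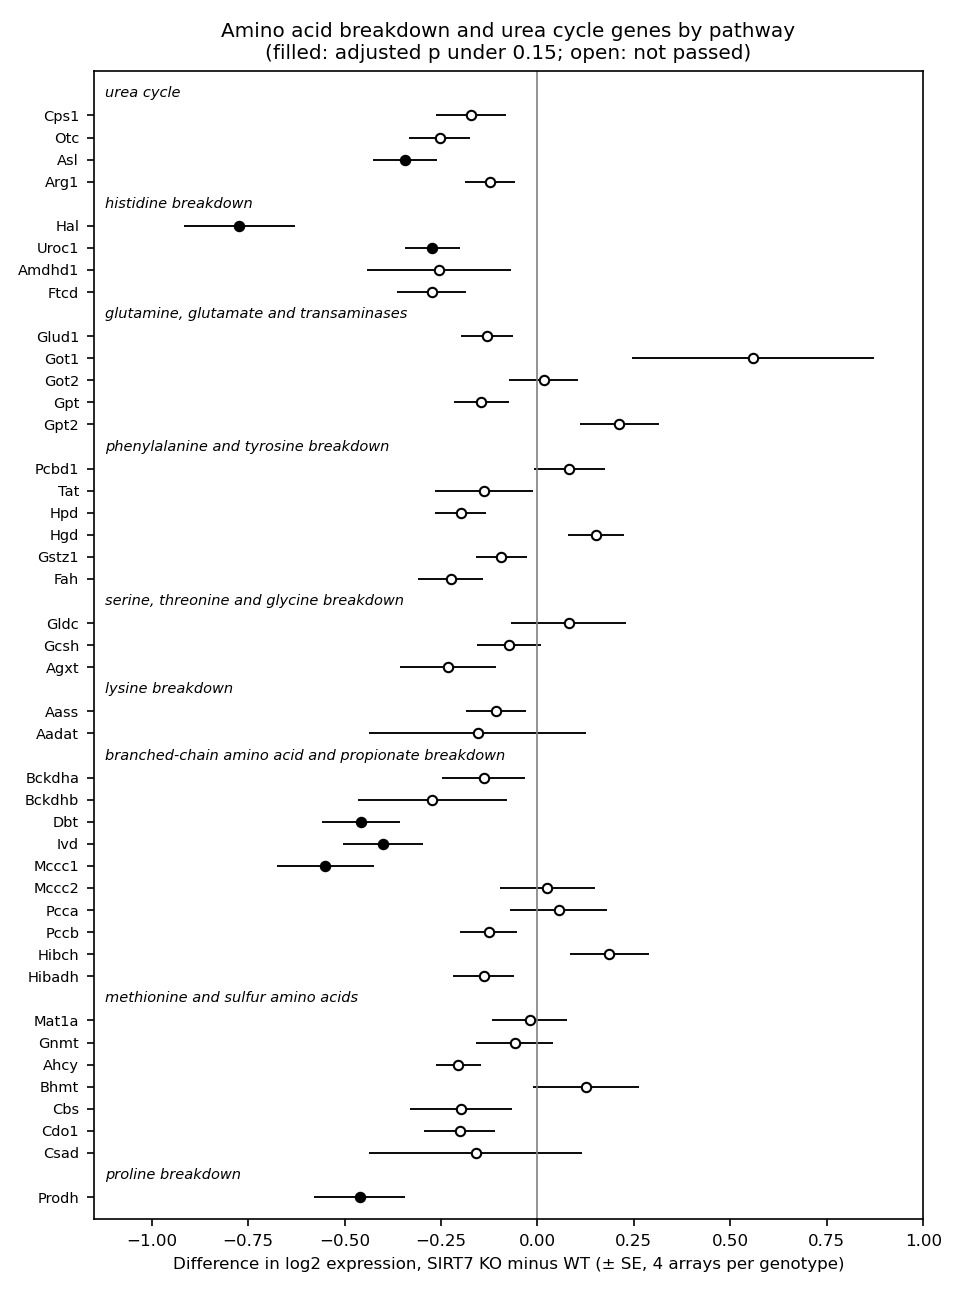
Difference in log2 expression, SIRT7 KO minus WT (horizontal axis, points with SE from limma, 4 arrays per genotype), for each of the 42 genes grouped by pathway (rows). Filled points mark the 7 genes with an adjusted p under 0.15, which all lie left of 0, while the point farthest right, Got1 at 0.56, has the widest error.

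The 4 measured enzymes of the urea cycle all had a difference below 0, of which 1 passed the test, and the median was -0.21. Asl, argininosuccinate lyase, which splits argininosuccinate into arginine and fumarate, stood at 11.23, 11.14, 11.01 and 11.16 on the SIRT7 KO arrays, against 11.48, 11.31, 11.60 and 11.53 on the WT arrays. The genotypes did not overlap, and the lowest WT array lay close above the highest SIRT7 KO array. Asl fell by 21.2%, a difference of -0.34 ± 0.08 (SE, adjusted p = 0.0994 by limma). The call was lost in 6 of the 8 fits that each left out 1 array, all but those without SIRT7 KO 1 or WT 2, with differences of -0.40 to -0.30 and adjusted p-values of 0.101 to 0.219.

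Otc, ornithine transcarbamylase, which joins ornithine and carbamoyl phosphate to make citrulline, stood at 13.05, 13.10, 13.17 and 12.91 in SIRT7 KO livers, against 13.41, 13.20, 13.29 and 13.34 in WT livers. Its arrays were also separate between the genotypes, but the difference of -0.25 ± 0.08 did not pass (adjusted p = 0.177 by limma). The other Otc probe sets gave -0.34 and -0.13, both with overlapping arrays. Cps1, carbamoyl phosphate synthetase, the entry of ammonia into the cycle, differed by -0.17 with a 95% confidence interval of -0.38 to 0.03. Arg1, the arginase that releases urea, differed by -0.12 with an interval of -0.27 to 0.02.

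Histidine breakdown held the largest fall among the listed genes. All 4 of its enzymes had a difference below 0, 2 of them past the threshold, with a median of -0.27. Hal, histidine ammonia-lyase, which removes ammonia from histidine to give urocanate, stood at 10.77, 10.75, 11.25 and 10.72 in SIRT7 KO livers, against 11.79, 11.66, 11.81 and 11.33 in WT livers. The genotypes did not overlap, although SIRT7 KO 3 lay just under WT 4, with the other SIRT7 KO arrays well below and the other WT arrays well above. Hal fell by 41.5%, a difference of -0.77 ± 0.14 (SE, adjusted p = 0.0536 by limma, 95% confidence interval -1.10 to -0.45). The fall passed in 7 of the 8 fits that left out 1 array, and without WT 1 the difference was -0.73 with an adjusted p of 0.156, at the upper end of a range of 0.0381 to 0.156.

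Uroc1, urocanate hydratase, which acts next, stood at 11.09, 11.09, 11.13 and 11.04 in SIRT7 KO livers, against 11.36, 11.37, 11.49 and 11.22 in WT livers. The SIRT7 KO arrays lay close together and below every WT array. Uroc1 fell by 17.2%, a difference of -0.27 ± 0.07 (SE, adjusted p = 0.127 by limma), and its dimmer probe set gave -0.23 without passing (adjusted p = 0.298 by limma). The call held in only 1 of the 8 fits that left out an array, the one without WT 4, while all 8 differences lay between -0.32 and -0.23 and the adjusted p-values between 0.0870 and 0.271. With the arrays centred on hepatocyte markers or on spike-in controls the difference was -0.15 (adjusted p = 0.272 by limma) or -0.12 (adjusted p = 0.431 by limma).

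The last enzyme of the route, Ftcd, which hands the one-carbon group of histidine to folate, stood at 11.90, 11.82, 12.13 and 11.79 in SIRT7 KO livers, against 12.24, 12.08, 12.27 and 12.14 in WT livers. SIRT7 KO 3 was again the highest of its genotype and reached into the WT range. The difference of -0.27 ± 0.09 did not pass with all arrays (adjusted p = 0.194 by limma), and it passed without SIRT7 KO 3, at -0.35 with an adjusted p of 0.114, within a range of 0.114 to 0.377. Amdhd1, imidazolonepropionase, the step between Uroc1 and Ftcd, differed by -0.26 with a 95% confidence interval of -0.67 to 0.16.

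In the breakdown of the branched-chain amino acids leucine, isoleucine and valine, the listed genes that fell were a subunit of the complex that all 3 share and a pair of enzymes of leucine. Acadsb of isoleucine breakdown, which is outside the list, fell as well (-0.39, adjusted p = 0.139 by limma). Of 10 genes in this group, propionate enzymes included, 3 fell, 7 had a difference below 0 and the median was -0.14. Dbt, the transacylase core of the branched-chain ketoacid dehydrogenase complex that commits all 3 amino acids to oxidation, stood at 10.13, 10.05, 10.30 and 9.88 in SIRT7 KO livers, against 10.68, 10.38, 10.58 and 10.54 in WT livers. No SIRT7 KO array reached the WT range. Dbt fell by 27.2%, a difference of -0.46 ± 0.10 (SE, adjusted p = 0.0813 by limma).

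Ivd, isovaleryl-CoA dehydrogenase, which follows that complex in leucine breakdown, stood at 9.26, 9.25, 9.54 and 9.20 in SIRT7 KO livers, against 9.94, 9.72, 9.58 and 9.61 in WT livers. SIRT7 KO 3 came close to the lowest WT array, WT 3, without crossing it. Ivd fell by 24.2%, a difference of -0.40 ± 0.10 (SE, adjusted p = 0.122 by limma), and its dimmer probe set fell by 39.9% at -0.73 ± 0.18 (adjusted p = 0.101 by limma).

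Mccc1, the biotin-carrying subunit of methylcrotonyl-CoA carboxylase, which takes the product of Ivd, stood at 9.23, 9.00, 9.12 and 8.73 in SIRT7 KO livers, against 9.75, 9.33, 9.69 and 9.51 in WT livers. The lowest array was SIRT7 KO 4, and again no arrays overlapped. Mccc1 fell by 31.7%, a difference of -0.55 ± 0.13 (SE, adjusted p = 0.0901 by limma). In the fits that left out 1 array, Dbt passed in 5 of 8 (not without SIRT7 KO 2, SIRT7 KO 4 or WT 1, differences -0.53 to -0.39), Mccc1 in 4 (not without SIRT7 KO 2, SIRT7 KO 4, WT 1 or WT 3, differences -0.63 to -0.45) and Ivd in 3 (not without SIRT7 KO 1, SIRT7 KO 2, SIRT7 KO 4, WT 1 or WT 2, differences -0.47 to -0.32).

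**Figure D2:**
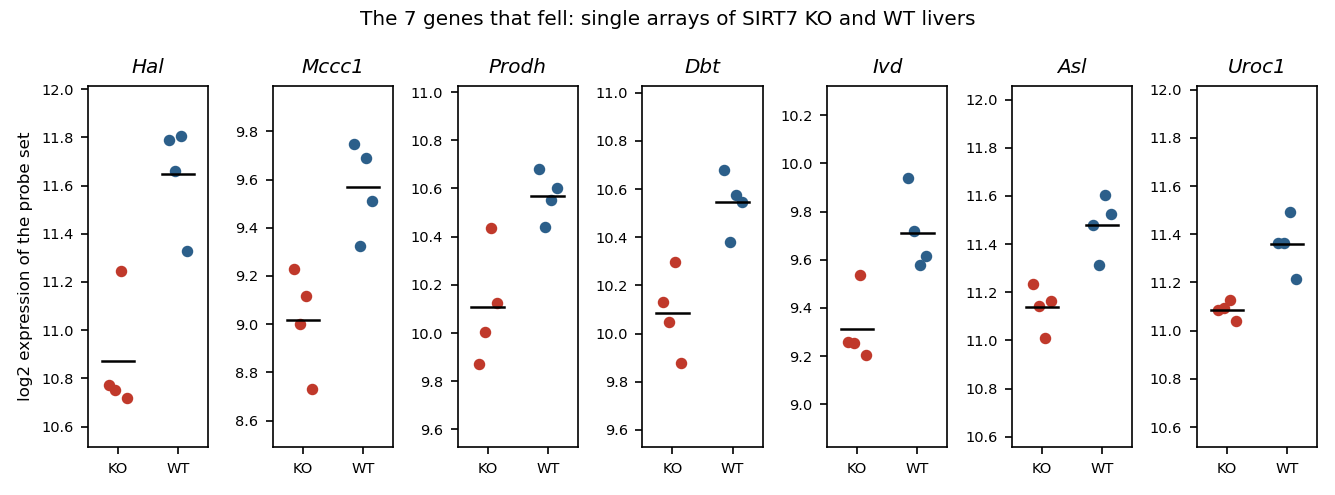
Log2 expression (vertical axis, a range of the same width in each panel) of the 7 genes that fell, on single arrays of SIRT7 KO livers (left, red) and WT livers (right, blue), with group means as bars. In no panel does a SIRT7 KO array reach the lowest WT array, and in the Hal and Ivd panels SIRT7 KO 3 lies well above the other SIRT7 KO arrays.

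The partner subunits of Mccc1 and Dbt did not pass the test. Mccc2, the partner of Mccc1, differed by 0.03 with a 95% confidence interval of -0.25 to 0.30, and the E1 subunits Bckdha and Bckdhb, which feed Dbt, differed by -0.14 and -0.27 without passing. The Mccc1 value less the Mccc2 value on each array lay between 1.89 and 2.17 in SIRT7 KO livers and between 2.28 and 2.91 in WT livers, a difference of -0.58 with no overlap (exact two-sided permutation test, p = 0.0286, the smallest that 4 against 4 allow). After adjustment over the 8 pairs of partner genes compared in this way that p became 0.152, so no pair passed. For Dbt less Bckdha the difference between the genotypes was -0.32 (exact two-sided permutation test, p = 0.0571). For Dbt less Bckdhb it was -0.19 (exact two-sided permutation test, p = 0.514). A fall of Dbt apart from its partners was thus not shown. Such a value sets 1 probe set against another, so only its difference between the genotypes can be read, and the Mccc2 probe set was the dimmest of those used for the listed genes.

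The valine enzymes gave values of both signs. Hibch, which releases 3-hydroxyisobutyrate from its CoA ester, was measured by probe sets that both gave values above 0, and only the dimmer of them passed. That probe set stood at 7.63, 7.66, 8.06 and 7.90 in SIRT7 KO livers, against 7.59, 7.37, 7.25 and 7.40 in WT livers, with SIRT7 KO 1 just above WT 1 and no overlap, and rose by 33.0% (0.41 ± 0.11, SE, adjusted p = 0.139 by limma). The brighter one stood at 10.11, 10.02, 10.19 and 9.83, against 10.00, 9.73, 9.98 and 9.71 in WT livers, with overlapping arrays (0.19 ± 0.10, adjusted p = 0.455 by limma). Hibadh, the next enzyme, differed by -0.14, and the propionyl-CoA carboxylase subunits Pcca and Pccb by 0.06 and -0.13, all without passing.

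The bases upstream of the start sites were read for 35 of the listed genes (39 promoters, RefSeq, assembly GRCm38.p6), taking the 150 bases before each start. The letters CCAAT, the CCAAT box, were searched on both strands. They occurred in 53.8% of the 39 promoters and in 24.5% of the 32851 promoters in the table (26.4% of its 21263 promoters of protein-coding genes). Of the 5 genes that fell and had a promoter in the table, 4 had the box. At least 3 copies were present in 1.2% of all promoters (1.51% of the protein-coding ones) and in those of Ivd, Mccc1, Mccc2 and Got1 among the listed genes, of which only Ivd and Mccc1 fell. The promoters of the adjacent leucine enzymes Ivd (chr2:118861844-118861993, plus strand) and Mccc1 (chr3:36000679-36000828, minus strand) are shown for their repeated boxes, beside that of Hal (chr10:93488618-93488767, plus strand), the gene with the largest fall, which has 1. They were chosen after their values were seen. Each is written in the direction of transcription and ends at the base before the start, with CCAAT or its reverse complement ATTGG in capitals.
Ivd: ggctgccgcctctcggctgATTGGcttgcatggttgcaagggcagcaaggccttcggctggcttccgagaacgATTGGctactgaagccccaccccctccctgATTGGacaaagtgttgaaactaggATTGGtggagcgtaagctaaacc
Mccc1: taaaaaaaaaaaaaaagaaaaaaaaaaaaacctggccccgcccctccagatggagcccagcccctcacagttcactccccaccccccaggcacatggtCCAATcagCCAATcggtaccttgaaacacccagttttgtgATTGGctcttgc
Hal: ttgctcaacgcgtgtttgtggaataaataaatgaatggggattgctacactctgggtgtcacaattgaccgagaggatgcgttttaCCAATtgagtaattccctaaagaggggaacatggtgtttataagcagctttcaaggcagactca
Ivd carried 4 copies, all as ATTGG, and Mccc1 carried 3. The C/EBP motif TTGCNNAA occurred in 3 of the 39 promoters, Hal among them, against 5.46% of all promoters, the cyclic AMP response element TGACGTCA in 0 against 1.36%, and TATAAA in 4 against 7.57%. A match of letters is a description of the sequence and not evidence of a bound site.

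Among the listed genes proline breakdown was represented by Prodh alone, the mitochondrial proline dehydrogenase that catalyses its first step. Aldh4a1 and Prodh2, which are outside the list, differed by -0.06 and 0.003, and neither passed. Prodh stood at 9.87, 10.00, 10.43 and 10.12 in SIRT7 KO livers, against 10.68, 10.44, 10.55 and 10.60 in WT livers. The highest SIRT7 KO array, SIRT7 KO 3, lay just under the lowest WT array, WT 2. Prodh fell by 27.3%, a difference of -0.46 ± 0.12 (SE, adjusted p = 0.115 by limma). The call was lost in all fits that left out 1 array except that without SIRT7 KO 3, with differences of -0.57 to -0.38 and adjusted p-values of 0.0613 to 0.262.

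The methionine cycle and the sulfur amino acids gave 6 of 7 values below 0, none of which passed, with a median of -0.16. Ahcy, which clears S-adenosylhomocysteine, the product of methylation reactions, came closest to the threshold among the listed genes that did not pass by their brightest probe set. It stood at 13.80, 13.73, 13.79 and 13.78 in SIRT7 KO livers, against 14.01, 13.98, 13.91 and 14.03 in WT livers, with narrow spread in both and no overlap (-0.20 ± 0.06, SE, adjusted p = 0.154 by limma). Mat1a and Gnmt, which make and use S-adenosylmethionine, differed by -0.02 and -0.06, and Bhmt, which returns homocysteine to methionine, by 0.13. Cbs, the entry of homocysteine into cysteine synthesis, and Cdo1, cysteine dioxygenase, differed by -0.20 each, with 95% confidence intervals of -0.50 to 0.10 and -0.41 to 0.01.

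Phenylalanine and tyrosine breakdown differed by gene, with 4 of 6 values below 0 and a median of -0.12. Hpd, which makes homogentisate, stood at 13.70, 13.71, 13.75 and 13.64 in SIRT7 KO livers, against 14.02, 13.84, 13.88 and 13.86 in WT livers. Fah, which cleaves fumarylacetoacetate at the end of the route, stood at 12.43, 12.26, 12.64 and 12.50 in SIRT7 KO livers, against 12.65, 12.68, 12.72 and 12.68 in WT livers. For both genes every SIRT7 KO array lay below every WT array, but neither Hpd (-0.20 ± 0.07, SE, adjusted p = 0.199 by limma) nor Fah (-0.22 ± 0.08, SE, adjusted p = 0.252 by limma) passed. Of the enzymes between them, Hgd had a value above 0 (0.15, 95% confidence interval -0.01 to 0.32), and Gstz1, which isomerises maleylacetoacetate, differed by -0.09. Tat, tyrosine aminotransferase, and Pcbd1, which recycles the cofactor of phenylalanine hydroxylase, differed by -0.14 and 0.08. Hgd, Gstz1, Tat and Pcbd1 did not pass.

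Transaminases and glutamate dehydrogenase, through which most amino nitrogen passes, gave 2 of 5 values below 0 and a median of 0.02. The cytosolic and mitochondrial alanine transaminases had values of opposite sign, -0.15 for Gpt and 0.21 for the brightest Gpt2 probe set, though the other Gpt2 probe sets gave 0.04 and 0.13, and none of these passed. The Gpt value less that brightest Gpt2 value on each array lay between -1.36 and -1.06 in SIRT7 KO livers and between -1.16 and -0.74 in WT livers (exact two-sided permutation test, p = 0.0571, adjusted over the 8 pairs 0.152). Glud1 differed by -0.13, with overlapping arrays, and by -0.16 on its dimmer probe set, where they did not overlap, and neither passed. The mitochondrial aspartate transaminase Got2 differed by 0.02. Among the glycine, serine and lysine enzymes, Gldc and Gcsh of the glycine cleavage system differed by 0.08 and -0.07, Agxt, which transaminates glyoxylate, by -0.23, and Aass, the first enzyme of lysine breakdown, by -0.11, and none of these passed.

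Got1, Aadat and Csad were, with Hal and Mccc1, the 5 genes with the widest spread over the 8 arrays, at SDs of 0.587, 0.459 and 0.450. Got1, the cytosolic aspartate transaminase, stood at 12.13, 12.04, 11.25 and 11.50 in SIRT7 KO livers, against 11.29, 10.69, 12.03 and 10.67 in WT livers. It was high on SIRT7 KO 1, SIRT7 KO 2 and WT 3, and its difference of 0.56 had a 95% confidence interval of -0.15 to 1.27 (adjusted p = 0.461 by limma). Aadat, an aminotransferase of lysine and tryptophan breakdown, stood at 10.54, 10.39, 11.41 and 11.05 in SIRT7 KO livers, against 11.02, 10.68, 10.60 and 11.70 in WT livers. Csad, which makes hypotaurine on the way to taurine, stood at 11.87, 12.23, 11.06 and 11.60 in SIRT7 KO livers, against 12.19, 11.85, 12.18 and 11.20 in WT livers. Aadat was highest and Csad lowest on the same array of each genotype, SIRT7 KO 3 and WT 4. The differences, each -0.16, had 95% confidence intervals of -0.79 to 0.48 for Aadat and -0.78 to 0.46 for Csad, and Aadat turned to 0.08 without WT 4 and Csad to 0.05 without SIRT7 KO 3.

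**Figure D3:**
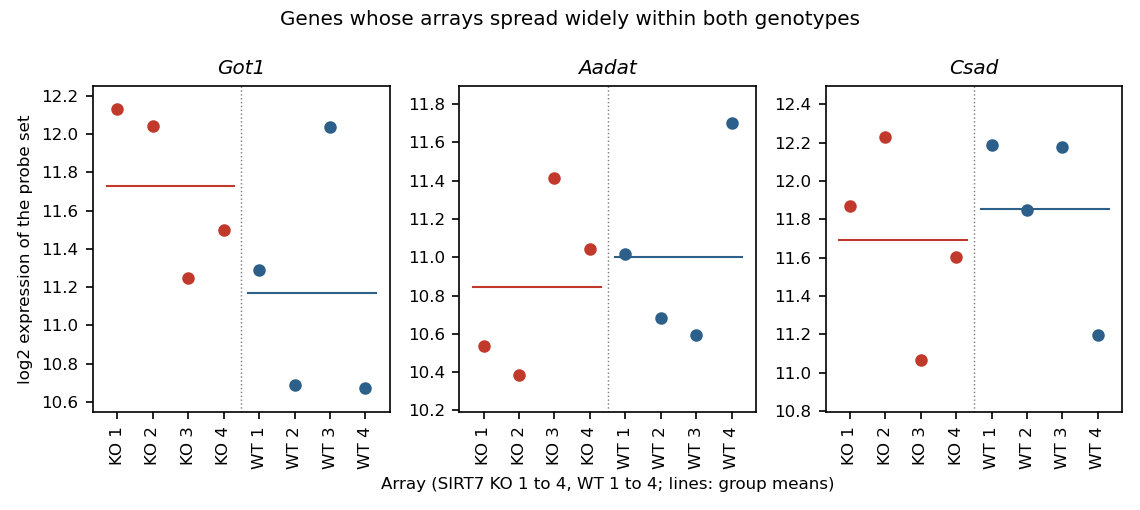
Log2 expression (vertical axis, a range of the same width in each panel) of Got1, Aadat and Csad on each array (horizontal axis), SIRT7 KO 1 to 4 in red on the left and WT 1 to 4 in blue on the right, with group means as lines. Aadat peaks on SIRT7 KO 3 and WT 4, where Csad is at its lowest in each genotype.

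The arrays differed in how many of the listed genes lay high or low. The median deviation of the 42 genes from their own means was -0.07, -0.08, -0.03 and -0.13 on the SIRT7 KO arrays, against 0.15, 0.03, 0.11 and 0.03 on the WT arrays. All SIRT7 KO arrays lay below 0 and all WT arrays above it, with WT 1 and WT 3 highest and SIRT7 KO 4 lowest. The number of the 42 genes above their own mean was 15, 13, 16 and 6 on the SIRT7 KO arrays, against 38, 25, 36 and 22 on the WT arrays. WT 4 stood apart from the other WT arrays, as it was the lowest of all 8 arrays for 12 genes, among them Got2, Gldc, Pcca and Gnmt, and SIRT7 KO 4 was the lowest for a further 12.

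**Figure D4:**
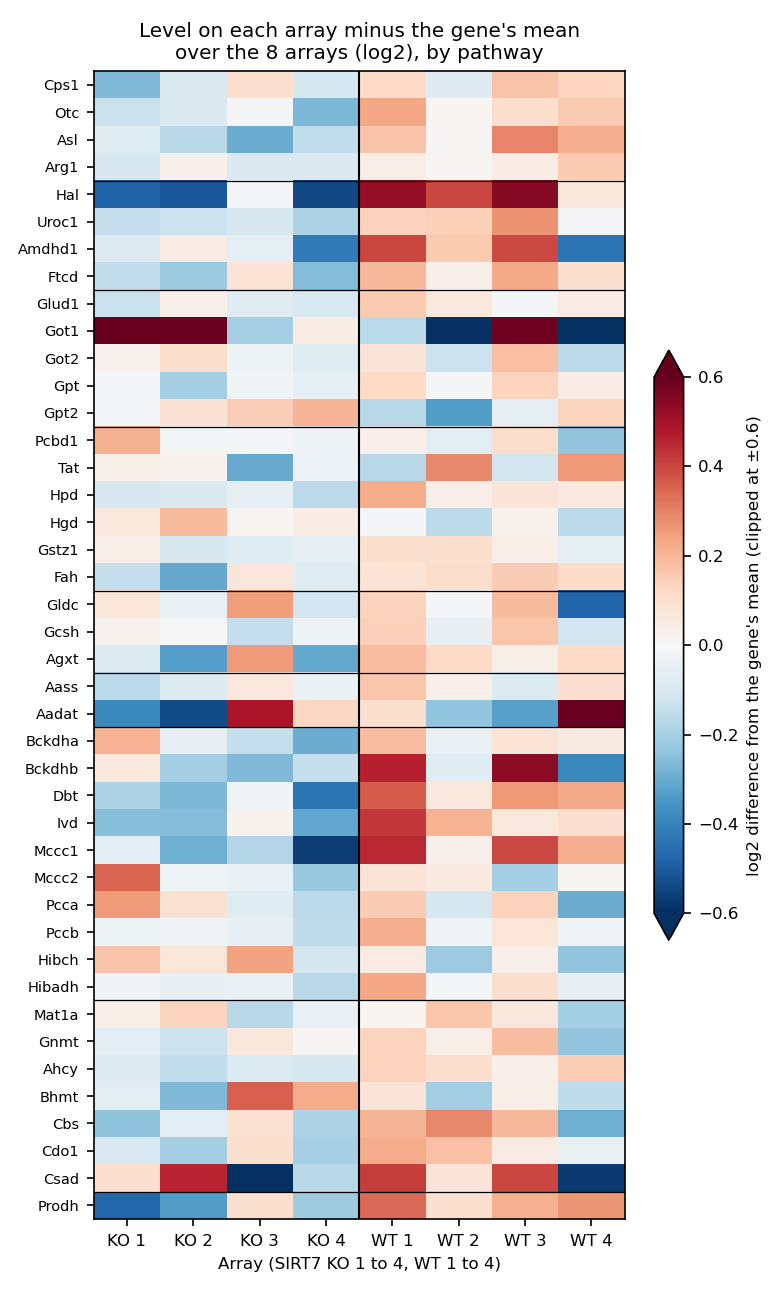
Level of each of the 42 genes (rows, by pathway) on each array (columns, SIRT7 KO 1 to 4 then WT 1 to 4) minus the gene's mean over the 8 arrays, on the log2 scale, with red above and blue below the mean. WT 1 and WT 3 lie above the mean for 38 and 36 of the 42 genes, SIRT7 KO 4 for 6, and the Got1, Aadat and Csad rows mix both colours within each genotype.

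Further genes of amino acid breakdown, not among the 47, were also counted. Of 66 such genes 51 were measured, 5 of them fell and 0 rose at the same threshold, against 2.48% and 2.17% of all genes. A difference below 0 was seen for 35 of the 51, against 50.7% of all genes and 57.8% of those brighter than 6.35, and the median difference was -0.09. The 5 were Nags, which makes the activator that Cps1 requires, Sardh, the mitochondrial sarcosine dehydrogenase, Acadsb of isoleucine breakdown, Cth, which makes cysteine from cystathionine, and Sqor, which oxidises hydrogen sulfide. Nags stood at 8.92, 9.23, 8.86 and 8.97 in SIRT7 KO livers, against 9.47, 9.42, 9.47 and 9.22 in WT livers, with SIRT7 KO 2 just above WT 4 (-0.40 ± 0.10, SE, adjusted p = 0.105 by limma). Sardh differed by -0.43 and its dimmer probe set by -0.50, Acadsb by -0.39, Sqor by -0.31 and Cth by -0.29, with adjusted p-values by limma between 0.101 and 0.139. Of the 51 genes 0 passed without SIRT7 KO 1, SIRT7 KO 4 or WT 1, while 1 passed without WT 3, 2 without SIRT7 KO 2, 3 without SIRT7 KO 3 or WT 2, and 5 without WT 4.

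**Figure D5:**
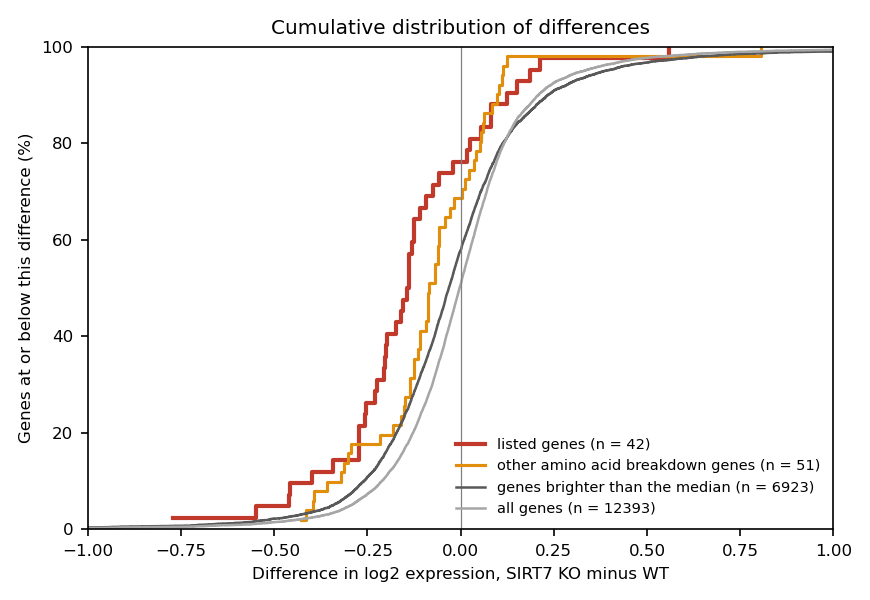
Share of genes (vertical axis, percent) at or below a given difference in log2 expression, SIRT7 KO minus WT (horizontal axis), for the 42 listed genes, 51 other genes of amino acid breakdown, the 6923 genes brighter than the median and all 12393 genes. The curve of the listed genes lies left of the others over most of its range and crosses 0 at 76.2%, against 57.8% for the bright genes and 50.7% for all genes.

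Regulators of these enzymes were counted as well, 17 measured of 19 listed. The list covers glucagon, insulin and glucocorticoid receptors, liver transcription factors and sirtuins. The transcription factor Hnf4a is also among the hepatocyte markers. Of the 17, 0 fell and 1 rose at the same threshold, against 2.48% and 2.17% of all genes. The list was chosen with earlier results of these data known, so its counts only describe it. At an unadjusted p under 0.05 by limma, 5 were lower and 1 higher, against 8.72% and 6.91% of all genes. The regulator that rose was Gcgr, the glucagon receptor, through which glucagon raises urea synthesis and amino acid breakdown in liver. Gcgr stood at 11.35, 11.34, 11.38 and 11.24 in SIRT7 KO livers, against 10.66, 10.64, 10.69 and 10.54 in WT livers, with both genotypes tightly grouped and far apart. It rose by 61.9% (0.70 ± 0.06, SE, adjusted p = 0.0056 by limma). Of the 17 regulators 13 had a difference below 0, against 50.7% of all genes and 57.8% of those brighter than 6.35, with a median of -0.15.

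Some markers and controls also differed between the genotypes. The mean of 8 measured hepatocyte markers (of 10 listed) was 13.93 to 14.04 in SIRT7 KO and 14.07 to 14.13 in WT. The difference was -0.12 with no overlap (exact two-sided permutation test, p = 0.0286). Of these 8 markers 7 had a difference below 0, and the median was -0.11. At an unadjusted p under 0.05 by limma 3 of the 8 were lower, against 8.72% of all genes, although 0 passed the adjusted threshold. The mean of the spike-in controls was 8.52 ± 0.10 in SIRT7 KO and 8.68 ± 0.06 in WT hybridisations (SD, n = 4 each, exact two-sided permutation test, p = 0.0286). With each array centred on its hepatocyte markers 4 listed genes fell (Dbt, Hal, Mccc1 and Prodh), 2 rose (Gpt2 and Hgd) and the median was -0.023, against 0.12 over all genes. With centring on the spike-in controls Hal stood at -0.62 and Mccc1 at -0.39, past the threshold, while Prodh stood at -0.30, Dbt at -0.30, Ivd at -0.24 and Asl at -0.19 (adjusted p = 0.152, 0.155, 0.180 and 0.317 by limma). Asl and Ivd also missed it with centring on the hepatocyte markers, at -0.22 and -0.28 (adjusted p = 0.194 and 0.172 by limma). Hal and Mccc1 passed under all 11 alternatives of processing, which leave out the stricter threshold of 0.05, passed by neither, and the omission of single arrays. Markers of periportal hepatocytes, in which the urea cycle is concentrated, overlapped between the genotypes, with means of 10.54 to 10.79 on the SIRT7 KO arrays and 10.59 to 10.83 on the WT arrays. Of these 10 markers 4 had a difference below 0, the median was 0.09, and 1, Pigr, fell. Pericentral markers ran from 9.41 to 9.87 on the SIRT7 KO arrays and from 9.57 to 10.00 on the WT arrays (8 of 11 had a difference below 0, median -0.18, and 2 fell). Glul and Oat are in this list and also among the further genes of amino acid breakdown. Macrophage markers ran from 9.23 to 10.08 in SIRT7 KO and from 8.96 to 9.98 in WT (10 of 10 had a difference above 0, median 0.26, and 0 passed), and stellate cell markers from 7.44 to 7.83 in SIRT7 KO and from 7.06 to 7.52 in WT (7 of 8 had a difference above 0, median 0.23, and 2 rose). Of 8 endothelial markers Stab1 fell and Lyve1 rose, of 9 lymphocyte markers Cd3g fell, and of 5 measured cholangiocyte markers 0 passed. As a sign of RNA quality, the GAPDH control probe sets at the 3' end stood above those at the 5' end by 0.11 in SIRT7 KO and 0.22 in WT livers (exact two-sided permutation test, p = 0.0286), and those of beta-actin by 1.49 in SIRT7 KO and 1.60 in WT livers (exact permutation p = 0.257). The part of spike-in level, RNA quality and cell composition in the lower levels of the listed genes was otherwise not tested.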

How the data were processed

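Liver RNA of 4 SIRT7 KO and 4 WT mice was hybridised to Affymetrix mouse expression arrays. The values the authors deposited are log2 expression for each probe set on each array, already background-corrected, normalized between arrays and summarised. The methods of the study name RMA and the submitters' processing notes GCRMA, without versions, so which was used is not settled. They treat background differently, which affects dim probe sets most. The values were used as deposited. After 64 control probe sets were left out, 22626 were tested. Names came from the GEO platform annotation, with a single symbol for 20380, several for 691 and none for 1555. All 42 members matched the mouse gene table by Entrez ID.

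The genotypes were compared in limma 3.58.1 (R 4.3.3) by lmFit and eBayes without covariates, two-sided, with Benjamini-Hochberg adjustment over all probe sets and a threshold of 0.15. The script was tested on simulated data. Differences are SIRT7 KO minus WT. Single measures over the 8 arrays were compared by an exact permutation test. Values on each array are given for genes with a passing probe set, the 12 smallest p-values and the 5 widest spreads, and the others by their difference. Of genes outside the list, Sirt7 and those of the further lists that passed are named, and Aldh4a1 and Prodh2 are given beside Prodh. The genes and lists were chosen with earlier results of these data known. The alternatives were a threshold of 0.05, other variance models, array weights, normalizations, probe set choices and filters, a replicate block and leaving out each array. The number of arrays limits the precision.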

Additional observations from a re-analysis of the deposited data

Results flagged for a closer look

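In 5 of the 84 sets of 4 arrays examined (42 genes in each genotype), 1 array stood far from the other 3, measured as its gap to the nearest of them over the whole range of the group. Chance alone gives about 1 in 20. Hal in SIRT7 KO livers had a ratio of 0.897, with SIRT7 KO 3 at 11.25 and the others between 10.72 and 10.77, and its difference was -0.90 without that array. Ivd in SIRT7 KO livers had a ratio of 0.834, again from SIRT7 KO 3, at 9.54 against 9.20 to 9.26 on the others, and its difference was -0.47 without it. Arg1 in SIRT7 KO livers had a ratio of 0.871, with SIRT7 KO 2 at 14.12 and the others between 13.98 and 14.00. Pcbd1 in SIRT7 KO livers had a ratio of 0.907, with SIRT7 KO 1 at 13.31 and the others between 13.06 and 13.09. Cbs in WT livers had a ratio of 0.838, with WT 4 at 10.49 and the others between 10.97 and 11.07, and its difference was -0.33 without that array.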

How the results depend on the processing

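Of the 7 listed genes that fell, Hal and Mccc1 passed under all 11 alternatives other than the stricter threshold and leaving out an array, Dbt under 10, Asl and Prodh under 8, Ivd under 7 and Uroc1 under 5. At an adjusted p under 0.05, 0 listed genes, 0 further genes of amino acid breakdown and 94 of all genes were called, against 7, 5 and 576 at 0.15 (12 and 0 listed genes were lower and higher at an unadjusted p under 0.05). With bright probe sets only, 11 listed genes fell. Averaging the probe sets of a gene, or taking the most variable one, made 1 listed gene, Hibch, rise. Of the 3 alternatives added after seeing the data, cyclic loess changed no count by over 1.5 times. Centring on the hepatocyte markers gave 4 lower and 2 higher listed genes, a median of -0.0229, 1 further gene and 1593 of all genes, while centring on the spike-in controls gave 2 lower and 3 higher, a median of 0.0145, 1 further gene and 1737 of all genes, with Aadat at 0.0015. Both raise SIRT7 KO values relative to WT, because the markers and controls used were lower in SIRT7 KO. The medians over all genes, 0.12 and 0.15, show this shift. Whether the deposited or the centred values are nearer the truth was not tested. Leaving out single arrays gave 0 to 7 lower listed genes, 0 to 5 further genes, 1 to 2 regulators (2 without WT 3) and 132 to 525 of all genes, differences of -0.344 to 0.0795 for Aadat and of -0.379 to 0.0491 for Csad. Each such fit has fewer arrays.

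The labels do not say whether the replicate numbers pair the arrays. Same-numbered arrays correlated at 0.26, -0.25, -0.16 and 0.15, which shows no pairing but is too little to exclude one. Only SIRT7 KO 1 correlated best with the WT array of its own number. With the replicate block 3 listed genes fell (Dbt, Hal and Mccc1), with 2 further genes and 368 of all genes.

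With 4 arrays per genotype, differences as small as those of Cps1 or Arg1 could not be told from 0. Array intensities do not show absolute transcript numbers, and neither protein nor metabolite levels were measured here.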
